A study of Rattus norvegicus with 31 samples.

Results

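The comparison concerned the dopamine-denervated and the intact striatum of rats given methamphetamine (METH). Male Sprague-Dawley rats had received 6-hydroxydopamine (6-OHDA), which kills the catecholamine neurons that import it, in the left medial forebrain bundle (2 µg/µl, 5 µl), the tract that carries dopamine axons to the striatum. They were later given an intraperitoneal dose of 2.5 mg/kg METH and killed 2 h after it. Striata from the lesioned side (Meth Lesion, ML, n = 6) were compared with striata from the non-lesioned side (Meth Non Lesion, MNL, n = 6). All lesioned rats, including those that later received saline, had earlier been tested for rotation under apomorphine and METH, so no lesioned group was drug-naive. The other arrays were lesioned and non-lesioned sides of saline-treated rats (SL, n = 6, and SNL, n = 5) and striata of unlesioned rats given METH or saline (MC and SC, n = 4 each). The ages of the rats and which 2 striata came from 1 rat are not given in the labels, so the p-values measure the spread between striata. A probe entered the comparison when it was detected at a detection p-value under 0.01 on at least 4 of the 31 arrays, which held for 9732 of 22519 probes, measuring 7088 of the 13334 genes that have a symbol here. At that limit, 167 probes were detected on exactly 4 arrays and entered, and 208 were detected on exactly 3 and did not. Levels are log2 normalised signals, a difference is ML minus MNL so that a positive value is higher on the lesioned side, and a probe was called when limma's Benjamini-Hochberg adjusted p was under 0.05.

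Dopamine reaches the striatum from the substantia nigra and acts on the spiny projection neurons. The direct-pathway neurons carry the D1 receptor and the peptides substance P and dynorphin, and the indirect-pathway neurons carry the D2 receptor and enkephalin. METH releases dopamine, and also serotonin and noradrenaline, from their terminals. D1 receptors raise cyclic AMP and activate kinases that switch on immediate-early genes, which are transcribed within minutes without new protein synthesis and encode transcription factors such as Fos and the Egr zinc-finger proteins. Where 6-OHDA has removed the dopamine terminals, peptide genes of the spiny neurons settle at other levels, which has made striatal peptides a classical readout of dopamine loss.

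The labels could be checked only in part, because dopamine neurons lie in the midbrain and their RNA is scarce in striatum. Of the 10 dopamine neuron genes with a probe, 9 were not tested, among them Th (tyrosine hydroxylase), Slc6a3 (the dopamine transporter) and Slc18a2 (the vesicular monoamine transporter), which were detected on 0 arrays on either side. Of 20 shared spiny neuron genes with a probe 19 were detected widely enough to be tested. Their mean levels were 9.71 to 10.23 on ML arrays and 9.59 to 10.26 on MNL arrays. Detection alone does not tell striatum from other brain tissue. All 9 astrocyte and all 6 cortical pyramidal neuron markers with a probe were also tested. The cortical markers had mean levels of 5.16 to 6.64 on ML arrays and 5.25 to 6.52 on MNL arrays. Between 8134 and 9049 probes were detected per ML array and between 8042 and 9445 per MNL array. Choroid plexus markers, which mark tissue from the ventricle beside the striatum, were high on 2 ML arrays: the mean level of 10 markers was 8.82 on ML 10 and 8.43 on ML 30, 6.10 to 6.81 on the other ML arrays and 6.14 to 6.85 on the MNL arrays. All 10 markers had a positive difference (median 0.43) and none was called. Away from ML and MNL, arrays SNL 19, SC 6 and SC 8a stood apart from their groups on the first principal component. Counts of calls that rest on these arrays, and calls lost without them, are given beside the results.

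Promoters are shown for 2 genes called lower on the lesioned side (Egr2 and Egr4), for 1 called higher (Nmu) and for Nts, a peptide gene with a positive difference that missed the threshold (adjusted p = 0.0563), because these 4 carry the letters to which activity-regulated transcription factors bind. So do Egr1, also called lower, and the uncalled Dusp1 and Slc25a25, which are not printed. The uncalled Pdyn, Junb, Cebpb, Per1, Per2 and Dusp6 had a sequence without a match. They are RefSeq sequences of rat build GRCr8, 250 bases before to 50 bases after the annotated start, printed 5′ to 3′ on the gene's strand. Capitals mark the letters TGACGT, the core of the cyclic AMP response element, on either strand (ACGTCA on the printed one), the CArG box bound by serum response factor, or the AP-1 motif TGANTCA bound by Fos and Jun proteins. Egr2 lies at chr20:21054392-21054691 on the minus strand, Egr4 at chr4:119607768-119608067 on the minus strand, Nmu at chr14:32198693-32198992 on the plus strand and Nts at chr7:39460839-39461138 on the minus strand.
Egr2: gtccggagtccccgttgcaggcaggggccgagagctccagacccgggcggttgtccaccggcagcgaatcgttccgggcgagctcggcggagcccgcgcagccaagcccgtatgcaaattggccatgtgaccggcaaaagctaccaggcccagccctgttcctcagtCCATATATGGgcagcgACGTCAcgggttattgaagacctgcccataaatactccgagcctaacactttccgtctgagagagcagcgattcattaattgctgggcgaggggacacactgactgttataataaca
Egr4: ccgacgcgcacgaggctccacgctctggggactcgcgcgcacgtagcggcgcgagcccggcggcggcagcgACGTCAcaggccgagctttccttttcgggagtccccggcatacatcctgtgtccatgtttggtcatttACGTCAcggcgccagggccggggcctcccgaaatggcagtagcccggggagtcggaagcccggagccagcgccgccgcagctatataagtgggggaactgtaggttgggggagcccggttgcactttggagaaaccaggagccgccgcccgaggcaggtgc
Nmu: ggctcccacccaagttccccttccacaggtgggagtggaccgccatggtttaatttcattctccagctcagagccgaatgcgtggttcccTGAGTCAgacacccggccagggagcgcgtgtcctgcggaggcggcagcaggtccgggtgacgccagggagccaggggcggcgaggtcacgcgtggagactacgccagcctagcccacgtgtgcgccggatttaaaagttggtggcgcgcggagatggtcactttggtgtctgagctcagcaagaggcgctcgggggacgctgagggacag
Nts: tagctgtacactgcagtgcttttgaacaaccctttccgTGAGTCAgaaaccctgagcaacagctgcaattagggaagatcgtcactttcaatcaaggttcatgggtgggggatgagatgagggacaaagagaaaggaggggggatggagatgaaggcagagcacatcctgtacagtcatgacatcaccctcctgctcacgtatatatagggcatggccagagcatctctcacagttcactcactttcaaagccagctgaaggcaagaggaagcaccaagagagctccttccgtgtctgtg
In Egr2 the CArG box began 83 bases and the TGACGT letters 67 bases before the start, and in Egr4 the TGACGT letters began 179 and 111 bases before it. The AP-1 letters began 160 bases before the start of Nmu and 212 bases before that of Nts. Of the 10 genes with a symbol that were called, 8 had a promoter sequence, 3 higher and 5 lower on the lesioned side. TGACGT was found in 3 of the 5 lower genes (Egr1, Egr2 and Egr4), against 7.94% of 33469 rat promoters of this length, and the CArG box in 2 of the 5 (Egr1 and Egr2), against 1.64%. The AP-1 letters were found in 1 of the 3 higher genes, Nmu, against 7.33% of all promoters. The full palindrome TGACGTCA, searched on both strands and overlapping TGACGT, was found in none of the 8, against 1.83%. A match describes the letters in this window only.

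After METH the 2 sides differed in few genes, mainly in peptide genes and follistatin on the higher side and in Tac1, 3 Egr factors and Rasl11a on the lower side. Of 9732 probes, 12 were called (0.123%): ML exceeded MNL on 5 (0.0514%) and fell short of it on 7 (0.0719%). The 5 higher were Nmu, Fst, Upb1, Tac3 and Shisa8, and the 7 lower were Egr2, Tac1, Egr4, Egr1, Rasl11a and 2 probes without a gene symbol. At an unadjusted p under 0.05 there were 215 probes (2.21%), 82 higher (0.843%) and 133 lower (1.37%). With the limits of the study's methods, at least 1.7-fold at an unadjusted p under 0.025, there were 17 probes (0.175%), 8 higher and 9 lower. On 20 probes (0.206%) the ML and MNL arrays did not overlap: each ML array lay above each MNL array on 6 (0.0617%) and below on 14 (0.144%). Differences of either sign were about equally frequent, with 49.5% of probes positive, 50.5% negative and a median of 0.00 over all probes tested.

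**Figure D1:**
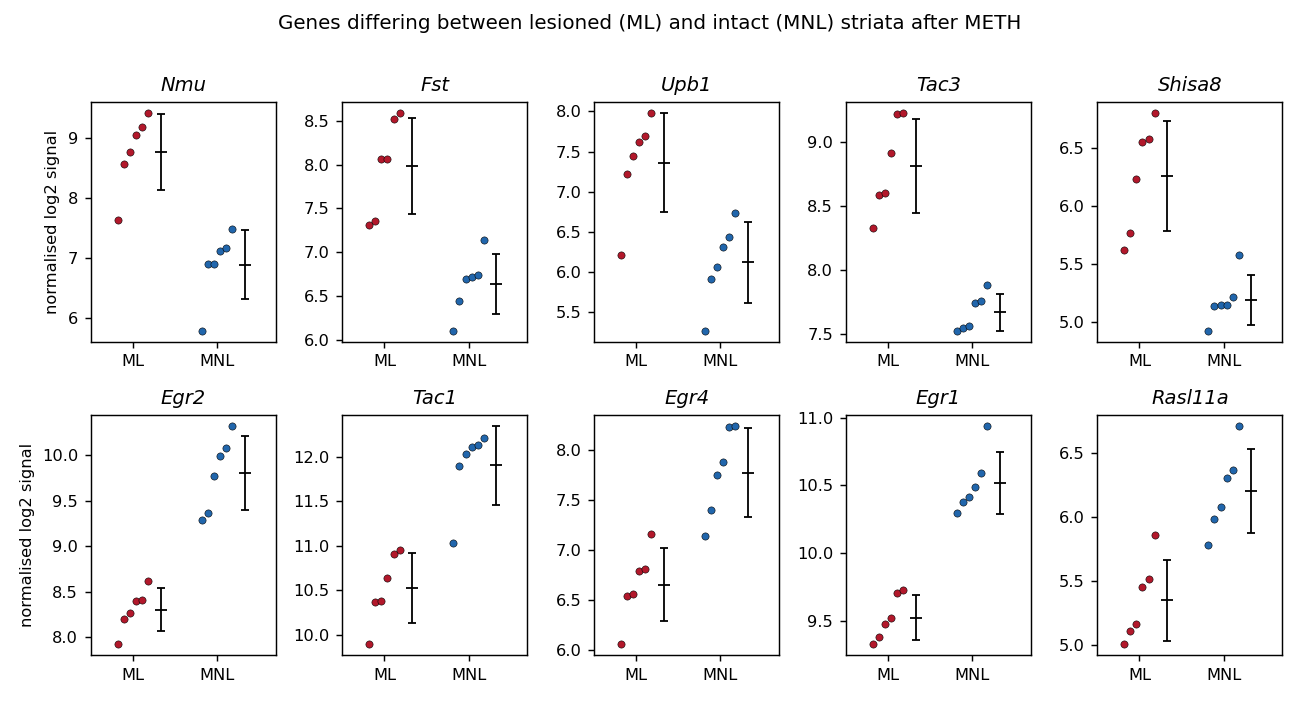
Log2 normalised signal of the 10 called genes with a symbol on each ML array (left, n = 6) and each MNL array (right, n = 6), with 1 dot per array and a bar at the mean ± SD. The ML dots of Nmu, Fst, Tac3 and Shisa8 lie above their MNL dots without overlap and those of Tac1, Egr2 and Egr1 lie below without overlap, while Upb1, Egr4 and Rasl11a overlap.

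Neuropeptide genes gave the largest difference. Nmu (probe ILMN_1366174, chromosome 14) encodes neuromedin U, a peptide named for its contraction of the uterus that also acts in the brain. Its lowest, median and highest levels were 7.64, 8.92 and 9.42 on ML arrays, against 5.79, 7.01 and 7.48 on MNL arrays. The lowest ML array stood above the highest MNL array. Nmu averaged 8.78 ± 0.63 in ML and 6.89 ± 0.58 in MNL (SD, n = 6 each), a difference of 1.88 (SE 0.28), or 3.69-fold (adjusted p = 0.00173). It was the largest difference among the 12 called probes.

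Tac3 (ILMN_1369660, chromosome 7), the rat gene for neurokinin B of the tachykinin family, an older symbol of which is Tac2, was also higher in ML. The ML arrays ranged between 8.32 and 9.22 with a median of 8.76, against 7.52 to 7.88 with a median of 7.65 on MNL arrays. The groups did not overlap, and the difference was 1.14 (SE 0.21), or 2.21-fold (adjusted p = 0.0102). Nts encodes neurotensin, a peptide that modulates dopamine signalling. Its levels were 9.20, 9.59 and 10.65 (lowest, median and highest) on ML arrays and 8.13, 8.57 and 9.05 on MNL arrays. Again the groups did not overlap, but with a difference of 1.16 (SE 0.25) its adjusted p of 0.0563 missed the threshold (0.0295 without ML 10 and 0.0472 without MNL 17). Without any other single array Nts did not pass (adjusted p up to 0.272).

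Tac1 (ILMN_1371400, chromosome 4), the precursor of substance P and neurokinin A in direct-pathway neurons, ran the other way. It had 9.90, 10.51 and 10.95 (lowest, median and highest) on ML arrays and 11.03, 12.07 and 12.21 on MNL arrays. Every ML array lay below every MNL array, and the difference was -1.38 (SE 0.23), that is 2.60-fold lower on the lesioned side (adjusted p = 0.00408). Pdyn, the dynorphin precursor of the same neurons, had 6.88, 7.24 and 7.84 on ML arrays and 7.54, 8.17 and 8.30 on MNL arrays. The groups overlapped and the difference of -0.80 did not pass (adjusted p = 0.0708). Pdyn passed without ML 30 (0.0241) or MNL 9 (0.0229) and without no other single array (adjusted p up to 0.293). Penk, the enkephalin precursor of indirect-pathway neurons, had 12.77, 13.28 and 13.52 on ML arrays and 12.22, 12.72 and 12.97 on MNL arrays, a difference of 0.54 that did not pass (adjusted p = 0.455).

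Over 24 tested genes for neuropeptides and their processing enzymes, 2 rose (Nmu and Tac3) and 1 fell (Tac1), where 0.0514% of all probes were called higher and 0.0719% lower, and the median difference was 0.02. Their differences were positive in 13 and negative in 11. Npy and Sst, peptides of striatal interneurons, differed by -0.17 and -0.15, and Cartpt, the precursor of the CART peptide, by 0.08 (adjusted p = 1.00 each). Among 5 tested receptors for these peptides and for activin none was called (median -0.07). The neuromedin U receptors Nmur1 and Nmur2 and the neurotensin receptor Ntsr1 had a probe but were detected on 0 ML and 0 MNL arrays and were not tested.

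**Figure D2:**
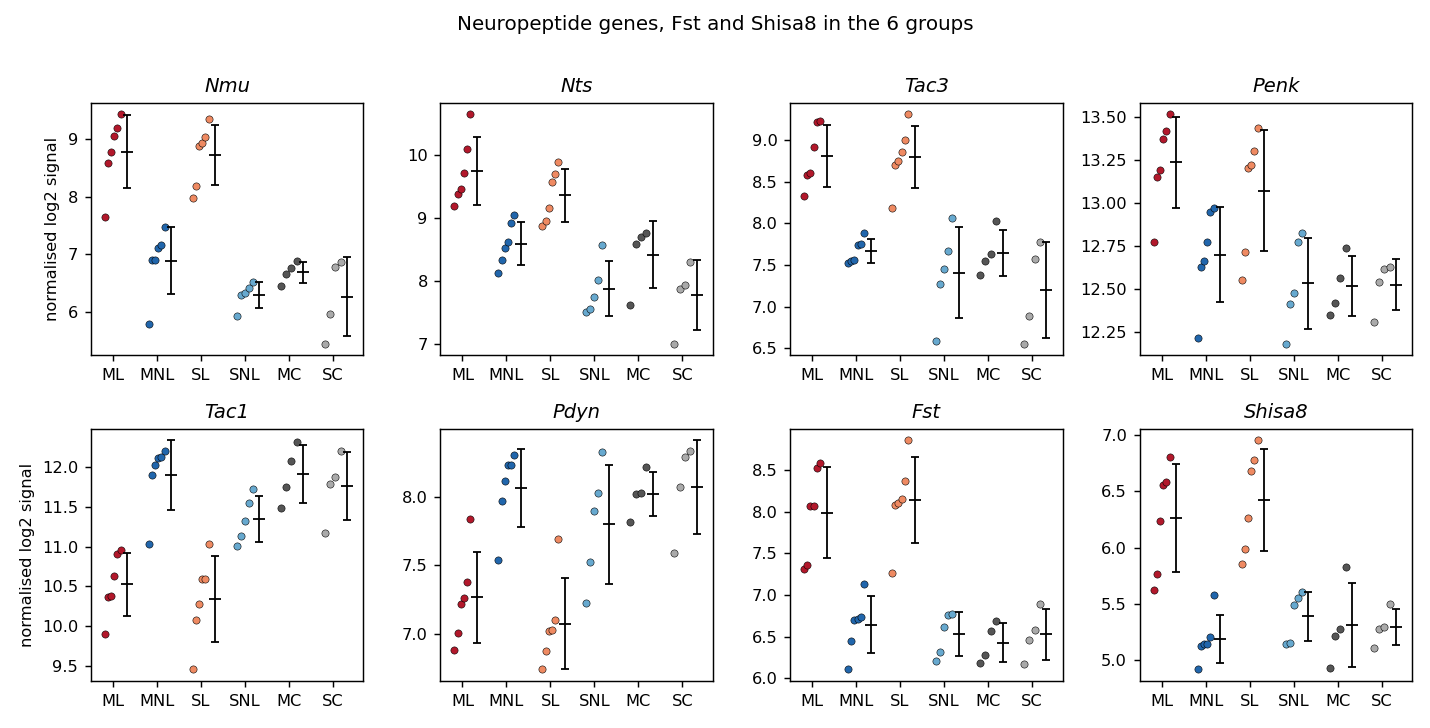
Log2 normalised signal of 6 neuropeptide genes, Fst and Shisa8 in the 6 groups, with ML left of MNL, SL left of SNL and MC left of SC, 1 dot per array and a bar at the mean ± SD. Nmu, Nts and Tac3 have a higher mean, and Tac1 and Pdyn a lower mean, on the lesioned side in both pairs.

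The remaining genes that rose on the lesioned side were not peptides. Fst (ILMN_1353747, chromosome 2) encodes follistatin, a secreted protein that binds and neutralises activin. It had 7.31, 8.07 and 8.59 (lowest, median and highest) on ML arrays, against 6.11, 6.71 and 7.14 on MNL arrays. There was no overlap, and the difference was 1.35 (SE 0.22), or 2.54-fold (adjusted p = 0.00408). Of 16 tested genes for activin and TGF-beta signalling, 1 rose (Fst), none fell and the median was 0.06. Over all probes 0.0514% were called higher and 0.0719% lower. Pmepa1, a TGF-beta target that dampens the pathway, differed by 0.26 (adjusted p = 1.00), Acvr1, an activin type I receptor, by 0.01, and Inhba, which encodes the activin A subunit and belongs to the activity-regulated genes, by 0.39 (adjusted p = 1.00).

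Shisa8 (ILMN_1362155, chromosome 7), a member of a family of membrane proteins that associate with AMPA receptors, was detected on 6 of 6 ML arrays and 2 of 6 MNL arrays. Its levels were 5.62, 6.40 and 6.81 (lowest, median and highest) on ML arrays and 4.92, 5.14 and 5.58 on MNL arrays. The groups did not overlap, with a difference of 1.08 (SE 0.19), or 2.11-fold (adjusted p = 0.00573). Without ML 10 and ML 30, the arrays high in choroid plexus markers, the difference was 0.87 and did not pass (adjusted p = 0.145).

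Upb1 (ILMN_1356861, chromosome 20) encodes beta-ureidopropionase, the last enzyme of pyrimidine breakdown. It had 6.20, 7.53 and 7.98 (lowest, median and highest) on ML arrays, against 5.26, 6.18 and 6.73 on MNL arrays. One ML array lay within the MNL range and the other 5 above it. The difference was 1.25 (SE 0.26), or 2.37-fold (adjusted p = 0.0288). Its call was lost on leaving out any 1 of ML 2, 18, 22 or 30 or MNL 1, 9 or 29 (adjusted p up to 0.125). Krt17, a keratin, was spread more widely, with 6.66 to 8.60 on ML arrays and 5.00 to 7.35 on MNL arrays, and its difference of 1.21 did not pass (adjusted p = 0.747). Cflar, an inhibitor of caspase 8, differed by 0.71 (adjusted p = 0.140). Its adjusted p was 0.0119 without ML 10 and up to 0.514 without another array. Without ML 10 and ML 30, Cflar and Pdyn passed.

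Of the activity-regulated genes, Egr1, Egr2, Egr4 and Rasl11a were lower on the lesioned side. Egr2 (ILMN_1370369, chromosome 20), a zinc-finger transcription factor of the immediate-early class whose promoter is printed above, had 7.92, 8.33 and 8.62 (lowest, median and highest) on ML arrays, against 9.29, 9.88 and 10.32 on MNL arrays. The highest ML array was below the lowest MNL array. The difference was -1.50 (SE 0.25), or 2.83-fold lower in ML (adjusted p = 0.00408).

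Egr1 (ILMN_1369005, chromosome 18), the most widely studied member of the same family, had 9.33, 9.50 and 9.73 on ML arrays and 10.29, 10.45 and 10.94 on MNL arrays. These did not overlap either, with a difference of -0.99 (SE 0.18), or 1.99-fold lower (adjusted p = 0.00573). Without ML 10 and ML 30 it was -0.91 and did not pass (adjusted p = 0.0883). Egr4 (ILMN_1359043, chromosome 4), also of this zinc-finger family, had 6.06, 6.68 and 7.16 on ML arrays and 7.14, 7.82 and 8.24 on MNL arrays. It overlapped by 1 array and differed by -1.12, or 2.18-fold lower (adjusted p = 0.0361). Its call was kept on leaving out ML 2, MNL 9 or MNL 21 and lost on leaving out any of the other 9 arrays (adjusted p up to 0.169), and without ML 10 and ML 30 together its adjusted p was 0.471.

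Rasl11a (ILMN_1371931, chromosome 12) encodes a small GTPase related to Ras. It was detected on 3 of 6 ML arrays and 6 of 6 MNL arrays, with 5.01, 5.31 and 5.86 on ML arrays and 5.78, 6.19 and 6.71 on MNL arrays. All but 1 ML array lay below the MNL range, and the difference was -0.85 (SE 0.15), or 1.81-fold lower (adjusted p = 0.00448). In a limma fit to ML and MNL alone Rasl11a did not pass (adjusted p = 0.0879). The 2 lower probes without a symbol, ILMN_1368895 and ILMN_1357813, differed by -0.44 (adjusted p = 0.0102) and -0.67 (adjusted p = 0.0226). Neither was called without ML 10 and ML 30 (adjusted p = 0.118 and 0.336), and the first was not called under median scaling (adjusted p = 0.399). The second also lost its call on leaving out any 1 of ML 2, 10 or 30 or MNL 1, 17, 25b or 29 (adjusted p up to 0.113). Tmem132e, a transmembrane protein gene, fell just outside, with 5.90 to 6.76 on ML arrays and 6.51 to 7.33 on MNL arrays (difference -0.79, adjusted p = 0.0563). Tmem132e passed without ML 26 or without MNL 21 and without no other single array (adjusted p up to 0.259).

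**Figure D3:**
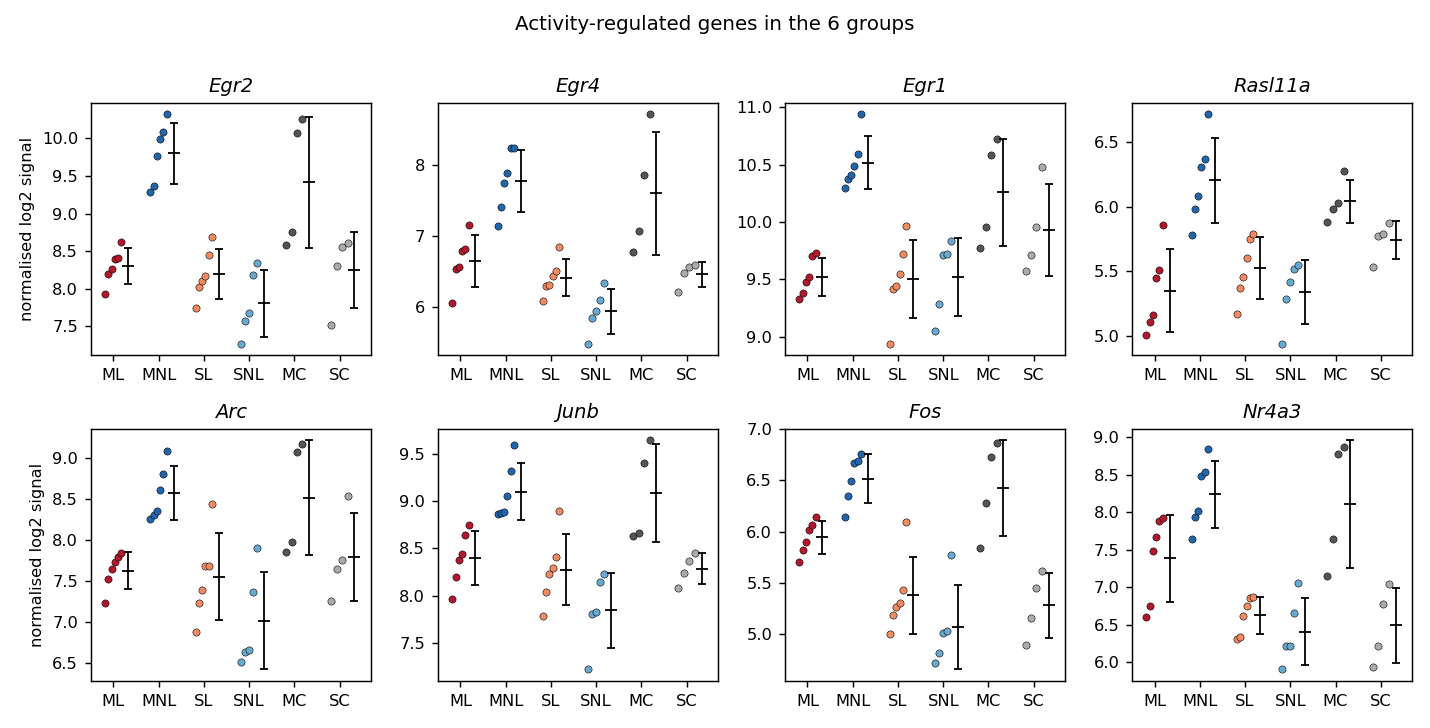
Log2 normalised signal of 8 activity-regulated genes in the 6 groups, with ML left of MNL, SL left of SNL and MC left of SC, 1 dot per array and a bar at the mean ± SD. MNL has the highest mean of the 4 groups from lesioned rats for each of the 8 genes.

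Other members of the class had values on the same side without passing. Arc, a regulator of AMPA receptor trafficking whose mRNA travels to dendrites, had 7.23 to 7.84 on ML arrays and 8.26 to 9.09 on MNL arrays (difference -0.94, adjusted p = 0.455). Junb, a partner of Fos in AP-1, had 7.97 to 8.74 on ML arrays and 8.86 to 9.59 on MNL arrays (difference -0.70, adjusted p = 0.394). Arc and Junb did not overlap between the sides. Fos had 5.71, 5.96 and 6.15 on ML arrays and 6.14, 6.58 and 6.76 on MNL arrays, an overlap at the edge and a difference of -0.57 (adjusted p = 0.894). Nr4a3, an orphan nuclear receptor also called Nor-1, differed by -0.85 (adjusted p = 1.00), and Cebpb, a leucine-zipper factor, by -0.69 (adjusted p = 0.265). For Cebpb the adjusted p was 0.0149 without MNL 21 and up to 0.869 without another array. Jun and Nr4a2 stood close to 0, at -0.10 and 0.05. Egr3 and Nr4a1 had a probe but were not tested, being undetected on the ML and MNL arrays.

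Of the 14 immediate-early transcription factors tested, none rose and 3 fell (Egr1, Egr2 and Egr4), where 0.0719% of all probes were called lower. At an unadjusted p under 0.05, 7 of the 14 were lower, where 1.37% of all probes were. Their median difference was -0.43, with 12 negative and 2 positive. This and the other gene lists were chosen with earlier results of these data known. The study also reports several members as raised by METH on the MNL side. It reports Fos, Egr1, Egr2 and Junb as higher in MNL than in ML, on these arrays and by qPCR. The list counts are therefore not independent evidence. Of 23 tested activity-regulated effector genes 1 fell (Rasl11a), where 0.0719% of all probes were called lower. At an unadjusted p under 0.05, 4 were lower and 2 higher (1.37% and 0.843% of all probes), and the median was -0.10. The 2 higher were Ptgs2 (cyclooxygenase 2, difference 0.64, adjusted p = 1.00) and Inhba. Ptgs2 overlapped, with 8.20 to 9.68 on ML arrays and 8.01 to 9.50 on MNL arrays.

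The feedback inhibitors of kinase and G protein signalling, which are induced by the pathways they switch off, had 11 negative and 1 positive difference of 12 tested (median -0.26). None was called and 4 (Dusp1, Dusp6, Spry2 and Sik1) were lower at an unadjusted p under 0.05, where 1.37% of all probes were. The phosphatases Dusp1 and Dusp6 differed by -0.63 (adjusted p = 0.805) and -0.58 (adjusted p = 0.455). Circadian clock genes were negative in 9 of 10 (median -0.13) with none called. Per1 and Per2, clock repressors that also respond to cyclic AMP, differed by -0.72 (adjusted p = 0.473) and -0.66 (adjusted p = 0.309).

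**Figure D4:**
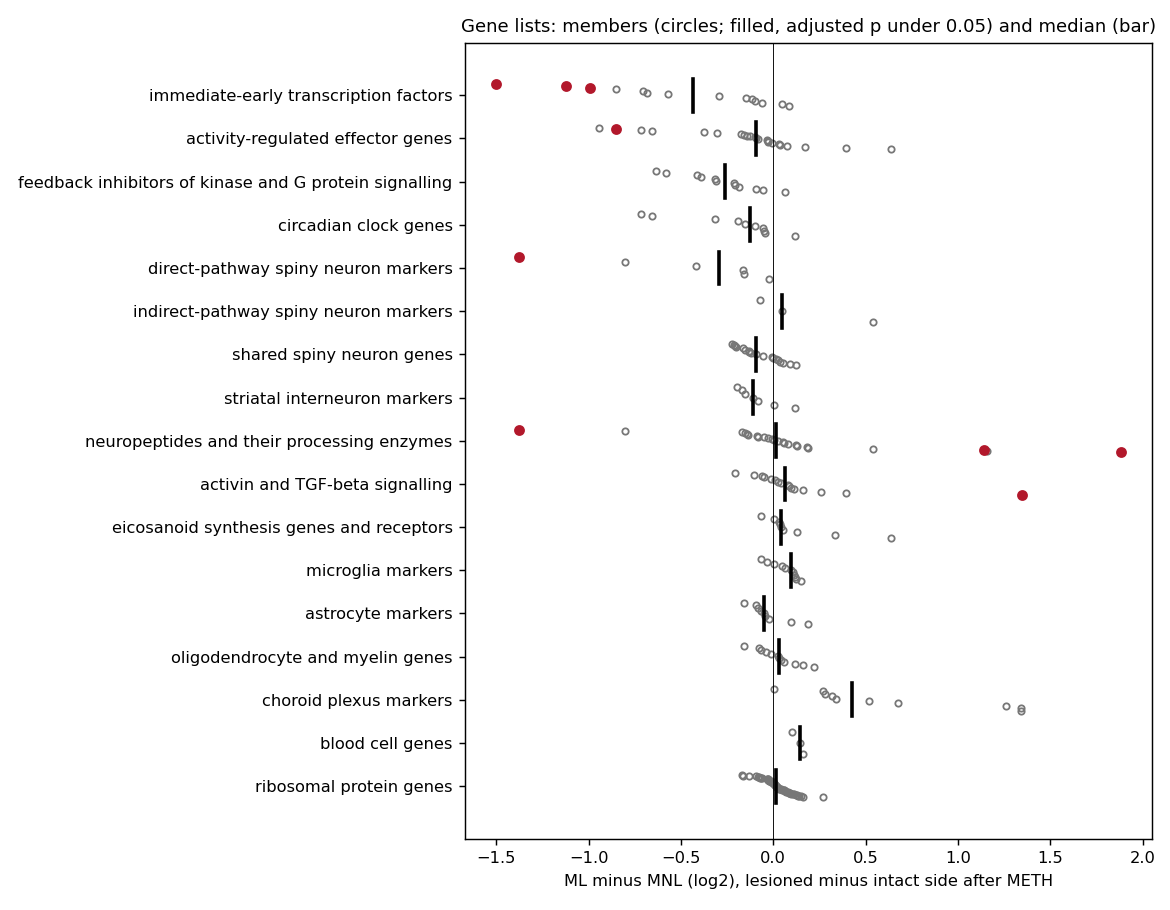
ML minus MNL log2 difference of each tested gene in 17 gene lists, 1 circle per gene, filled where called, with a bar at each list's median and a line at 0. Of the lists plotted, the immediate-early transcription factors have the lowest median (-0.43) and the choroid plexus markers, with no called gene, the highest (0.43).

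Markers of the spiny neurons held 1 called gene. All 6 tested direct-pathway markers, Tac1 and Pdyn included, were negative (median -0.29), where 50.5% of all probes were. Tac1 was called, where 0.0719% of all probes were called lower. Chrm4, Ebf1 and Isl1 differed by -0.17, -0.16 and -0.02. All 6 were also negative in SL minus SNL (median -0.31). The side difference after METH minus that after saline had a median of -0.002 over the 6. Drd1, the D1 receptor, differed by -0.42 (adjusted p = 1.00). Of 3 tested indirect-pathway markers none was called, with Drd2, the D2 receptor, at 0.05 and Adora2a, the adenosine receptor of these neurons, at -0.07. The 19 shared spiny neuron genes (median -0.09), 7 interneuron markers (-0.11) and 6 dopamine and serotonin receptors (-0.01) held no called gene. In bulk tissue, fewer cells of a type and less RNA per cell cannot be told apart.

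Other cell types and housekeeping machinery gave no calls. The medians were 0.10 for 11 microglia markers, -0.05 for 9 astrocyte markers, 0.03 for 12 oligodendrocyte and myelin genes, -0.03 for 3 endothelial markers, 0.07 for 6 cortical pyramidal neuron markers and 0.15 for 3 blood cell genes. Trem2 and Aif1, which mark microglia, differed by 0.15 and 0.12. Ribosomal protein genes (60 tested, median 0.02), oxidative phosphorylation subunits (62, 0.01), proteasome subunits (32, -0.01), heat shock proteins and chaperones (17, 0.00), glucocorticoid-induced genes (11, 0.01) and eicosanoid genes (9, 0.04) stayed near the median of all probes.

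The saline-treated rats addressed whether a side difference was already there without METH on the day. Their arrays are separate from ML and MNL, but the fit takes a common estimate of each probe's spread from all 6 groups. Calls in SL minus SNL are therefore not independent of those in ML minus MNL. In SL minus SNL, 8 probes were called, all of them higher (0.0822%), and 460 had an unadjusted p under 0.05 (4.73%). Of the 8, all were positive in ML minus MNL, where 49.5% of all probes were, and the median was 1.19. There 5 were called (Nmu, Fst, Upb1, Tac3 and Shisa8), against 0.0514% of all probes called higher. The 5 shared probes are 41.7% of the 12 called after METH and 62.5% of the 8 called after saline. The other 3 were Nts (1.16 after METH), Krt17 (1.21) and Pmepa1 (0.26). Without SNL 19, SC 6 and SC 8a, which stood apart, 4 probes were called in SL minus SNL and 229 had an unadjusted p under 0.05. Of the 4, 3 were called in ML minus MNL and all were positive there.

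The genes that rose after METH are set beside their saline values here. Nmu differed by 2.42 after saline, with 7.98, 8.90 and 9.34 on SL arrays and 5.94, 6.34 and 6.52 on SNL arrays. The side difference after METH minus that after saline was -0.53 (95% interval -1.36 to 0.29). For Fst the saline difference was 1.61 and the difference between treatments -0.26 (-0.91 to 0.39). Both intervals hold 0, which does not show that the side differences were equal. Tac3 (1.39 after saline) gave -0.25 (-0.88 to 0.38), Upb1 (1.36 after saline) gave -0.11 (-0.87 to 0.64) and Shisa8 (1.03 after saline) gave 0.05 (-0.52 to 0.61).

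Tac1 was lower on the lesioned side after saline too, by 1.01 on the log2 scale, with 9.45, 10.43 and 11.04 on SL arrays and 11.01, 11.32 and 11.73 on SNL arrays, but there it did not pass (adjusted p = 0.182). The difference between treatments was -0.37 (95% interval -1.05 to 0.31). Pdyn differed by -0.72 after saline, and its difference between treatments was -0.08 (-0.61 to 0.46). Penk differed by 0.54 in either pair, with 0.00 between them (-0.45 to 0.44).

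**Figure D5:**
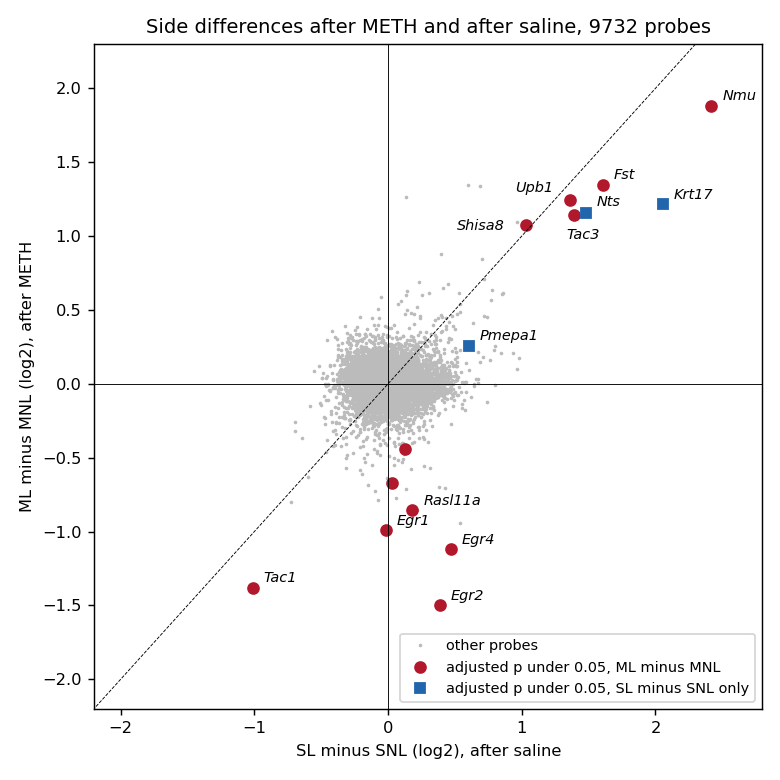
SL minus SNL (x axis) against ML minus MNL (y axis), both log2 differences, 1 point per probe for 9732 probes, with a dashed line where the 2 are equal, red circles for probes called in ML minus MNL and blue squares for those called in SL minus SNL alone. Nmu, Fst, Tac3, Upb1 and Shisa8 lie near that line on the positive side and Tac1 on the negative side, whereas Egr2, Egr4, Egr1 and Rasl11a lie below it.

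The saline values of the activity-regulated genes called after METH follow, none of which was called in SL minus SNL. Egr2 differed by 0.39 after saline, with 7.74, 8.13 and 8.69 on SL arrays and 7.27, 7.67 and 8.34 on SNL arrays, which overlapped. The difference between treatments was -1.89 (SE 0.37, 95% interval -2.64 to -1.14). Across all 9732 probes the test of that difference called none: 208 had an unadjusted p under 0.05 (2.14%), and the lowest adjusted p was 0.141, shared by Egr2, Rasl11a, Egr4 and ILMN_1368895. The intervals of the named genes leave this adjustment out, and the genes were picked on the same ML and MNL arrays. The count was 0 in the fit over all 6 groups and in the fit without SNL 19, SC 6 and SC 8a (lowest adjusted p 0.420), against 2 (Egr2 and Egr4) in a fit to the 4 lesioned-rat groups alone. Leaving out ML 26 gave 1 call (Rasl11a) and leaving out MNL 21 gave 2 (Egr2 and Rasl11a).

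Egr4 differed by 0.47 after saline and by -1.59 between treatments (-2.29 to -0.90), Egr1 by -0.02 and -0.98 (-1.50 to -0.46), and Rasl11a by 0.18 and -1.04 (-1.47 to -0.60). Arc and Junb gave -1.48 (-2.25 to -0.70) and -1.13 (-1.70 to -0.57) between treatments, from unadjusted p-values of 0.000509 and 0.000293 in limma. Over the 14 immediate-early transcription factors the median was -0.43 for ML minus MNL, 0.12 for SL minus SNL and -0.49 for the difference between them, against 0.00 over all probes in the first.

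The same genes were also read by treatment within a side. MNL minus SNL shares the MNL arrays, and ML minus SL the ML arrays, with the side comparison, so the values are given side by side only. Egr2 differed by 2.00 in MNL minus SNL (adjusted p = 9.35e-05) and by 0.11 in ML minus SL. For Egr4 the differences were 1.83 and 0.24, and for Egr1 0.99 (adjusted p = 0.00762) and 0.02, in the same order. Rasl11a was higher in MNL than in SNL by 0.86 (adjusted p = 0.00521). In MNL minus SNL 11 probes were called, all higher (0.113%), and 9 without SNL 19, SC 6 and SC 8a. In ML minus SL none was, with 185 at an unadjusted p under 0.05 (1.9%).

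Fos and Nr4a3 had positive values on both sides. Fos differed by 1.45 in MNL minus SNL (adjusted p = 9.35e-05) and by 0.56 in ML minus SL (unadjusted p = 0.00415 in limma). Fos was detected on 6 of 6 MNL and 6 of 6 ML arrays, but on 1 of 5 SNL and 4 of 6 SL arrays. Low signal after saline therefore limits both Fos values. Nr4a3 differed by 1.83 in MNL minus SNL and by 0.76 in ML minus SL (unadjusted p = 0.0103 in limma). Neither ML minus SL value passed adjustment over all probes. The medians of the 14 immediate-early transcription factors were 0.80 for MNL minus SNL and 0.11 for ML minus SL.

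The unlesioned rats gave a set of METH-raised genes chosen on arrays other than ML and MNL. The fit takes a common estimate of each probe's spread from all 6 groups. The choice is therefore not independent of the p-values for ML minus MNL. In MC minus SC, 1 probe was called (0.0103%), and none without SC 6, SC 8a and SNL 19 (lowest adjusted p 0.503 in limma, 328 at an unadjusted p under 0.05). With all arrays, 26 probes were higher at 1.7-fold and an unadjusted p under 0.025 (0.267%). Of these 26, 8 were lower in ML than in MNL at an unadjusted p under 0.05, where 1.37% of all probes were, and none was higher. The 8 were Egr2, Egr4, Fos, Junb, Nr4a3, Cebpb, Klf5 and 1 probe without a symbol (ILMN_1357605), of which Egr2 and Egr4 were called. Klf5, a Krüppel-like transcription factor, was named after its values were seen. The other 18 included small differences of either sign, so that 16 of the 26 were positive and 10 negative, with a median of 0.07.

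This set leaned on 2 SC arrays that stood apart. Without SC 6 and SC 8a, and with SNL 19 left out too, 10 probes were higher in MC than in SC by the same rule. Of the 10, 6 were lower and 1 was higher in ML than in MNL at an unadjusted p under 0.05, 2 were called lower, and the median was -0.48. Egr2 had 8.75, 10.26, 8.58 and 10.07 on the 4 MC arrays, against 8.56, 7.52, 8.61 and 8.30 on the 4 SC arrays. The 2 high MC arrays lay within the MNL range and the other 2 close to the upper end of SC. In the sample titles the high arrays, MC 7 and MC 14, carry the letter b, and MC 5 and MC 13 the letter a. What the letters mean is not given.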

How the data were processed

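Illumina RatRef-12 BeadChips were hybridised with striatal RNA, 1 array per striatum (31 arrays). The authors exported background-subtracted signal intensities and detection p-values from BeadStudio without normalization between arrays, and a deposited log2 table of the same signals, used without the ML 22 column, served as an alternative. The columns of ML 22 and SL 32 were displaced by 4 rows against the probe identifiers and were realigned (correlation with the other arrays 0.213 before and 0.985 after for ML 22, 0.215 and 0.986 for SL 32). The first 4 probes were left out. Of the probes, 13790 had 1 gene symbol. Signals were background-corrected with normexp on the detection p-values (offset 16), quantile normalised and log2 transformed with neqc in limma 3.58.1 (R 4.3.3). Probes detected at p under 0.01 on at least 4 arrays were fitted in 1 linear model of the 6 groups (25 residual degrees of freedom, eBayes), with Benjamini-Hochberg adjustment over all 9732 and a threshold of 0.05. The 95% intervals use the moderated standard error. Median signals of 7.83 to 12.71 per array against lowest detected signals of 15.3 to 27.0 limit the precision for dim probes. On simulated data of the same size, 70% of genes with a log2 change of 0.5 and 98% of those with 1 were called. There 50 probes were changed at each size, with independent normal noise, and 8 unchanged probes were called. So many changes ease the Benjamini-Hochberg adjustment, so these shares do not give the share of real changes found here.

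Named genes were those called, the largest at 1.7-fold and p under 0.025, those called in SL minus SNL, those the study measured by qPCR or names, and up to 4 members of each of 27 gene lists by absolute difference. A gene with several probes is given by the one with the highest mean signal. Members and lists were chosen with earlier results of these data known. The 16 tested genes of the qPCR list held 3 called higher and 3 called lower (median -0.04), against 0.0514% and 0.0719% of all probes. The study picked these genes on these samples, so they are not independent evidence. The study's methods used GeneSpring and an unpaired t-test at 1.7-fold, run here as an alternative under the name of the methods' t-test. Monoamine and qPCR measurements were not analysed here.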

Additional observations from a re-analysis of the deposited data

Results flagged for a closer look

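In each group of 6 arrays for 35 named genes (70 groups), the array at either end was set against the rest by Dixon's ratio of gap to range (critical value 0.625). Chance marks about 1 group in 20, and 6 were marked. MNL 9 was the lowest MNL array for 4 of them: Nmu at 5.79 (other MNL arrays 6.90 to 7.48), Tac1 at 11.03 (11.90 to 12.21), Krt17 at 5.00 (6.76 to 7.35) and Slc25a25, a mitochondrial ATP-magnesium carrier, at 9.17 (9.95 to 10.38). The ML minus MNL difference of Slc25a25 was -0.70 (adjusted p = 0.301). Leaving out MNL 9 gave an adjusted p of 0.0251, the only 1 of 12 single-array omissions at which Slc25a25 passed. ML 22, one of the realigned arrays, was the lowest ML array for Cebpb, at 6.50 (other ML arrays 7.05 to 7.32). MNL 1 was the highest MNL array for Dusp1, at 10.84 (other MNL arrays 10.20 to 10.44). Without MNL 9, Nmu and Tac1 stayed called, and the number of probes called was 13.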

How the results depend on the processing

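The main count was 12 probes at an adjusted p under 0.05. Without 1 ML or MNL array it was 9 to 14, and the count at 1.7-fold and an unadjusted p under 0.025, 17 in the text, was 14 to 22. A fit to ML and MNL alone called 9 probes, 7 of the 12 among them. Egr4, Upb1, Rasl11a, ILMN_1368895 and ILMN_1357813 were lost there, and Arc and Per1 were gained. Replicate numbers do not mark rats in the labels and neighbouring numbers correlated unevenly between the sides (-0.07 to 0.71, over 0.1 in 5 of 6), so they were not taken as pairs. ML 2, 10, 22 and 30 correlated best with their neighbouring MNL array, and ML 18 and 26 with another. Whether neighbours are the 2 sides of a rat therefore stays unknown. With neighbouring numbers as a random replicate block 29 probes were called, the 12 among them, and as a fixed replicate block 20, with 11 of the 12. With signals floored at 1 or at 16, the methods' t-test left 0 after Benjamini-Hochberg adjustment (232 and 224 at an unadjusted p under 0.05). The deposited log2 table, used without ML 22, gave 28 probes at 1.7-fold, so table and arrays changed together. For the difference between treatments, 0 in the text, the fit to the 4 lesioned-rat groups gave 2, the random replicate block 8, and leaving out 1 array 0 to 2. Nmu, Fst, Tac1, Egr2 and Tac3 passed in each of 24 alternatives fitted with limma, while Upb1 passed in 13 and Egr4 in 10. Without ML 10 and ML 30, chosen after seeing the data, 9 were called with 7 of the 12 among them, and without SNL 19, SC 6 and SC 8a, also chosen then, 14. No called gene changed sign. Low signal limits Shisa8 and Rasl11a, which were undetected on 4 MNL and 3 ML arrays. It also limits ILMN_1368895, which was detected on 2 of 6 ML arrays. The causes of these shifts were not tested.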

Other observations

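Choroid plexus markers were also high outside the side comparison after METH. Ttr, the transthyretin gene of choroid plexus epithelium, had 13.06 on ML 10 and 12.62 on ML 30, against at most 9.86 on the MNL arrays, and 13.63 on SL 4, 11.20 on SL 12, 12.57 on SNL 11 and 11.21 on MC 7. The part of this tissue in the differences of other genes was not tested beyond the fit without ML 10 and ML 30.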
